A study of Mus musculus with 22 samples.

Results

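The expression of 10 genes whose products defend the surface of the gut epithelium was examined in distal colon tissue of Winnie and control mice. The genes were found by exact match of the gene name in the table of read counts, which holds 46078 genes, and each of the 10 matched 1 gene. They were the C-type lectin genes Reg3a, Reg3b, Reg3g and Reg4, the resistin-like gene Retnlb, the angiogenin gene Ang4, the anchored barrier protein gene Lypd8, the lysozyme gene Lyz1, the intelectin gene Itln1 and Pigr, which encodes the polymeric immunoglobulin receptor.

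The 22 mice fell into 3 groups, each library from a separate mouse. The control group held 8 C57BL/6 mice aged 14 weeks, 4 males and 4 females. The Winnie group held 7 mice aged 14 weeks, 3 males and 4 females. The Winnie-Prolapse group held 7 Winnie mice with rectal prolapse aged 18 weeks, 4 males and 3 females. Winnie mice carry a missense mutation in Muc2, which encodes the main gel-forming mucin of the colon, and they develop colitis without further treatment, so the level of Muc2 RNA does not check this label. All groups share the C57BL/6 background. All mice with prolapse were older than the rest, so age and prolapse cannot be told apart here. Tissue pieces were sequenced whole, so in these values fewer cells of a type and less RNA per cell cannot be told apart either.

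The colon keeps bacteria away from its epithelium with mucus from goblet cells and with secreted proteins that kill bacteria, bind them or hold them at a distance. REG3 lectins are secreted by intestinal epithelial cells and rise in many models of gut infection and inflammation, where interleukin-22 acting through STAT3 is a known inducer. Resistin-like molecule beta is a goblet cell product known to be induced by type 2 cytokines and by bacterial colonisation. Lysozyme and the angiogenin ANG4 are best known from the Paneth cells of the small intestine, a cell type that the mouse colon normally lacks.

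The coding starts of the 3 Reg3 genes are shown because their counts have to be told apart before their values can be read. The genes lie close together on mouse chromosome 6 (GRCm38, GENCODE M21), Reg3b at chr6:78370657-78373466 and Reg3a at chr6:78380709-78383827 on the plus strand, and Reg3g at chr6:78466269-78468872 on the minus strand. The first 120 coding bases are given 5′ to 3′ from the start codon, with capitals at the 43 positions where the 3 genes are not all alike when set side by side without gaps.
Reg3a: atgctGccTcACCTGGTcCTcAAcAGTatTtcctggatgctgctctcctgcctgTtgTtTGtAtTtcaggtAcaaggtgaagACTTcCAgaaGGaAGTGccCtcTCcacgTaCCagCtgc
Reg3b: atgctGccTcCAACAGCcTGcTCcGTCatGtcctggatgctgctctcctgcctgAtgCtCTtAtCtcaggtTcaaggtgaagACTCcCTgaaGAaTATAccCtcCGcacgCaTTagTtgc
Reg3g: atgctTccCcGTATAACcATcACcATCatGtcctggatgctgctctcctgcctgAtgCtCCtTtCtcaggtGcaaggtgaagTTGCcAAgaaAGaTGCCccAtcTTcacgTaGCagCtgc
Over the whole coding sequence, Reg3b and Reg3g were 76% identical, Reg3a and Reg3b 73.9%, and Reg3a and Reg3g 72.8%. No stretch of 50 bases of the longest coding transcript of any Reg3 gene occurred in a transcript of another gene. Among the coding pairs compared, which left out Lypd8, Itln1 and Pigr, Lyz1 was most like another gene. It had 95% coding identity to Lyz2, the lysozyme of macrophages, and 16.1% of its 50-base stretches occurred in Lyz2. For Ang4 the share was 4.70%. How reads from such shared stretches were divided between the genes was not tested.

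The other members are spread over the genome (GRCm38, GENCODE M21). Reg4 lies at chr3:98222156-98236748, Retnlb at chr16:48816856-48818892, Lypd8 at chr11:58379043-58390728 and Pigr at chr1:130826684-130852249, all on the plus strand. Ang4 lies at chr14:51763878-51773590, Lyz1 at chr10:117287797-117292868 and Itln1 at chr1:171518122-171535294, all on the minus strand. In this annotation 0 other genes overlap any of the 10.

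The libraries held 24817527 to 36344372 counts. In counts-per-million (CPM), which divide each count by the library total, 3 counts in 1 library equal 0.0825 to 0.121, the lowest level read as detected here. General epithelial genes were present in every library, with summed levels of 7678 to 13238 CPM. Some libraries stood apart from their groups. C57BL/6 replicate 7, a female, had 0.217 CPM of Hoxd13, a gene of the posterior body axis, where the other 21 libraries had 111 to 288 CPM. It had 16.4 CPM of Hoxb13, against 177 to 612 CPM elsewhere, but 86.6 CPM of Hoxa13, within the range of 29.8 to 103 CPM of the others. In this library 429 of 14878 genes lay over 4-fold from the median of its group, against 21 to 76 genes in the other 7 C57BL/6 libraries. By the same measure 47 to 178 genes lay apart in Winnie libraries and 147 to 472 in Winnie-Prolapse libraries. The Hox genes were looked at after this library's values had been seen, and where along the colon it was taken was not tested. The members' fold changes against C57BL/6 and their counts of calls are given with and without it, and values of other genes use all libraries unless stated. Winnie-Prolapse replicate 6 held 179624 CPM of milk protein RNA, at most 54.2 CPM elsewhere, and 326 CPM of exocrine pancreas markers, at most 0.983 CPM elsewhere. Winnie replicate 2 held 40.6 CPM of squamous epithelium markers, against 1.58 to 3.45 CPM in the other Winnie libraries. In Winnie-Prolapse the squamous marker sum ranged from 2.09 to 2683 CPM, highest in replicate 7.

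The 10 genes differed widely in level. Together they took 1.19% to 2.85% of all counts, and without Lypd8 and Pigr only 0.0123% to 0.0987%. Divided by exon length, the median level in C57BL/6 was 11495 CPM per kilobase for Lypd8, 1182 for Pigr and 220 for Reg4. The next level was 5.82 CPM per kilobase for Lyz1, followed by Ang4 at 3.22, Itln1 at 0.701, Retnlb at 0.379, Reg3g at 0.180 and Reg3b at 0.114, while Reg3a had no count in any control. Without C57BL/6 replicate 7 the medians of Ang4 and Retnlb were 0.612 and 0.137, with Retnlb below Reg3g at 0.150. In Winnie the order was Lypd8, Pigr, Reg4, Retnlb (26.1 CPM per kilobase), Lyz1, Ang4, Reg3g, Itln1 and Reg3b. In Winnie-Prolapse Retnlb and Reg4 stood level at 129 CPM per kilobase, and Reg3b at 70.3 and Reg3g at 29.5 had passed Lyz1 at 6.18. The lengths are of merged exons, 1142 bases for Reg3b and 2114 for Reg3g. Their longest coding transcripts hold 783 and 771 bases, so the choice of length lowers Reg3g most. On this scale the ranges of Lypd8, Pigr and Reg4 did not overlap in any group, whereas from Lyz1 down each neighbour in C57BL/6 overlapped the next until Reg3a, as did Retnlb, Reg4, Reg3b, Reg3g and Lyz1 in Winnie-Prolapse. The order of those neighbours does not exceed the spread between mice.

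**Figure D1:**
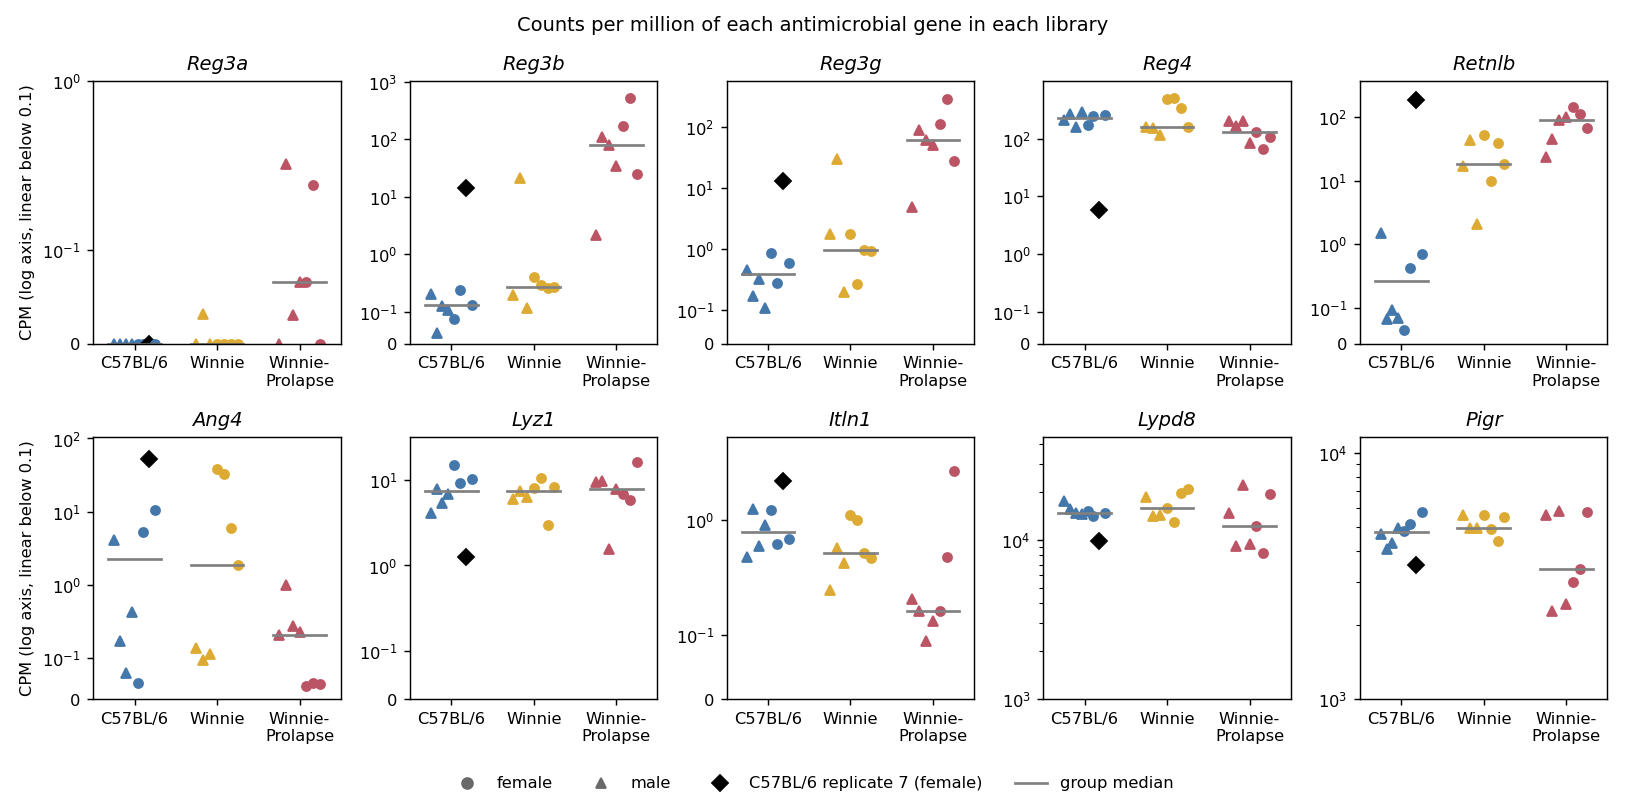
Level of each of the 10 genes in every library, in CPM on a log axis (linear below 0.1 in all panels but Lypd8 and Pigr), by group; circles are females, triangles males, the black diamond is C57BL/6 replicate 7 and grey lines are group medians. Retnlb, Reg3b and Reg3g lie higher in all 7 Winnie-Prolapse libraries than in the other 7 controls, while Lypd8 and Pigr overlap between all groups.

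Reg3b and Reg3g were near the limit of detection in 7 of 8 controls and abundant in most prolapsed colons, whereas Reg3a was barely detected in any group. REG3B and REG3G bind bacterial cell walls, and REG3G is known for holding Gram-positive bacteria away from the epithelium. Reg3b ranged in C57BL/6 from 0.0342 to 14.2 CPM with a median of 0.130 CPM, and without replicate 7 its highest level was 0.236 CPM, from 26 counts in 7 libraries. In Winnie it ranged from 0.116 to 21.2 CPM (median 0.268), and in Winnie-Prolapse from 2.19 to 517 CPM (median 80.2). The 7 Winnie-Prolapse libraries all lay above the other 7 controls, 6 of them also above C57BL/6 replicate 7. The highest Winnie library was replicate 2, and the other 6 did not exceed 0.405 CPM.

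Reg3b was 6.32 ± 1.38 (log2 fold change ± SE) higher in Winnie-Prolapse than in C57BL/6, with an adjusted p of 0.00132 by edgeR's quasi-likelihood test with Benjamini-Hochberg adjustment, the test behind every adjusted p below unless another tool is named. Without C57BL/6 replicate 7 the difference was 10.16 ± 1.22 (adjusted p = 9.97e-06). With the milk-rich Winnie-Prolapse replicate 6 left out as well, it was 9.07 ± 0.91 (adjusted p = 3.69e-06). The study's limit was an adjusted p under 0.001 with a change of at least 1.5-fold. Of the fits that left out 1 library, Reg3b passed it without C57BL/6 replicate 7 and without Winnie-Prolapse replicate 1 (adjusted p = 7.98e-04 for the latter). It was past the looser limit of an adjusted p under 0.05 with all libraries. Reg3b passed the filter on low counts only with Winnie-Prolapse, the group where it was high, so these values are descriptions. Fitted with no such filter, the difference was 6.35 ± 1.34 (adjusted p = 0.00149).

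Reg3g moved in the same way. It ranged from 0.108 to 13.1 CPM in C57BL/6 (median 0.381, highest 0.849 without replicate 7), from 0.193 to 30.1 CPM in Winnie (median 0.978) and from 4.91 to 289 CPM in Winnie-Prolapse (median 62.4). As for Reg3b, the 7 Winnie-Prolapse libraries lay above the other 7 controls and 6 of them above replicate 7. Reg3g rose by 5.68 ± 1.10 on the log2 scale in Winnie-Prolapse against C57BL/6 (adjusted p = 5.34e-04), and by 8.02 ± 0.87 without C57BL/6 replicate 7 (adjusted p = 4.23e-06). The call at 0.001 was lost when any single other control (adjusted p = 0.00111 to 0.00133), Winnie-Prolapse replicate 5 (0.00102) or replicate 6 (4.92 ± 1.01, 0.00114) was left out, while the call at 0.05 was kept. With C57BL/6 replicate 7 and Winnie-Prolapse replicate 6 both left out, the difference was 7.25 ± 0.66 (adjusted p = 1.74e-06). The other 7 controls held 3 to 22 counts of Reg3g and the Winnie-Prolapse libraries 166 to 7164. Reg3g thus passed the filter on low counts mainly through Winnie-Prolapse, where it was high, and these values are descriptions.

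In the Winnie group, the difference of Reg3g from C57BL/6 depended on single libraries. Winnie exceeded C57BL/6 by 1.40 ± 1.15 on the log2 scale (adjusted p = 0.381). Without C57BL/6 replicate 7 the difference was 3.72 ± 1.03 (adjusted p = 0.0176), with 5 of 7 Winnie libraries above all remaining controls, and with Winnie replicate 2 left out as well it was 1.45 ± 0.54 (adjusted p = 0.0664). With only Winnie replicate 2 left out it was -0.90. Without C57BL/6 replicate 7, the controls held 3 to 22 counts of Reg3g and the Winnie libraries 5 to 941. The values of those fits are descriptions. Reg3b did not pass the filter on low counts in this comparison. Fitted with no filter it differed by 0.81 ± 1.31 (adjusted p = 0.706), or by 4.61 ± 1.21 without C57BL/6 replicate 7 (adjusted p = 0.0179), and 5 of the 7 Winnie libraries lay above every control but replicate 7.

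With both sexes together and no covariate, Winnie-Prolapse exceeded Winnie by 5.56 ± 1.43 for Reg3b (adjusted p = 0.0304) and by 4.30 ± 1.14 for Reg3g (adjusted p = 0.0335), on the log2 scale. Of the 7 Winnie-Prolapse libraries, 6 lay above all Winnie libraries for Reg3b and 5 for Reg3g. With sex as a covariate neither passed at 0.05, with 5.87 ± 1.67 for Reg3b (adjusted p = 0.0551) and 4.63 ± 1.30 for Reg3g (adjusted p = 0.0530). In males alone the differences were 3.01 ± 1.77 and 2.30 ± 1.45 (both adjusted p = 0.823), and in females alone 9.70 ± 1.13 (adjusted p = 0.00226) and 7.27 ± 0.94 (adjusted p = 0.00304). Winnie replicate 2, with 21.2 CPM of Reg3b and 30.1 CPM of Reg3g, was 1 of the 3 Winnie males. Winnie replicates 1 and 3, the other males, held 0.193 and 0.116 CPM of Reg3b, and the Winnie females 0.259 to 0.405 CPM. For Reg3g these males held 1.73 and 0.193 CPM, and the females 0.262 to 1.79 CPM. With both sexes together but without Winnie replicate 2, the differences were 9.11 ± 1.25 (adjusted p = 0.00307) and 6.57 ± 0.94 (adjusted p = 0.00327). Both calls at 0.05 were lost when any of Winnie replicates 3, 4, 5, 6 or 7, or Winnie-Prolapse replicate 5 or 6, was left out, with adjusted p of 0.0528 to 0.0655 for Reg3b. The Reg3b values are again descriptions, since it passed the filter through Winnie-Prolapse, and with no filter its difference was 5.55 ± 1.40 (adjusted p = 0.0340). The Reg3g call was also lost without Winnie replicate 1 or Winnie-Prolapse replicate 4, and over all these fits its adjusted p was 0.0529 to 0.0731.

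Reg3a, the third lectin of this cluster, was barely detected. It had 0 counts in the 8 C57BL/6 libraries and 1 count in the 7 Winnie libraries together. In Winnie-Prolapse it had 21 counts in all, with a highest level of 0.323 CPM from 10 counts. It did not pass the filter on low counts in any of the 3 comparisons.

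The stretches before the RefSeq starts of Reg3b and Reg3g are shown because these genes moved together while Reg3a stayed near 0. They hold 158 bases each and end at base -21, counted back from the start of transcription in RefSeq (GRCm38.p6), at chr6:78370707-78370864 on the plus strand for Reg3b and at chr6:78468895-78469052 on the minus strand for Reg3g. The Reg3b stretch lies inside the span that GENCODE M21 gives this gene, which begins further upstream, so that the annotations differ on where the gene starts. Capitals mark matches to TTCNNNGAA, the spaced palindrome that STAT factors bind, to TATAAA, the TATA box, and to TTTATG, a form of the CDX site, each searched on both strands. The capitals TTTATA in Reg3g are TATAAA read on the other strand.
Reg3b: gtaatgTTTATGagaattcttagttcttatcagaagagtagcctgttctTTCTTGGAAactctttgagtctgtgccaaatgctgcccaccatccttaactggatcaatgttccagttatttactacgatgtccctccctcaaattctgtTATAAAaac
Reg3g: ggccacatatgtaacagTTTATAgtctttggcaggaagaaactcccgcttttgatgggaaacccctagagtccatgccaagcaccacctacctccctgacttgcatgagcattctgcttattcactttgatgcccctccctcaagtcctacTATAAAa
The stretches agreed at 99 of 160 aligned columns (61.9%). Over the 250 bases upstream, Reg3b and Reg3g were 68.4% identical, and the pairs with Reg3a were 43.9% (Reg3b) and 47.2% (Reg3g). TATAAA lay at base -29 in Reg3b and -27 in Reg3g, and 12.4% of 32851 promoters of the same length held it. TTCNNNGAA lay at -129 in Reg3b and at -192 in Ang4, against 7.02% of promoters, and TTTATG at -172 in Reg3b and at -29 on the minus strand in Itln1, against 10.8%. The windows of Reg3a, Reg4, Lypd8, Lyz1 and Pigr held none of these motifs, and for Retnlb no window was used. A match is a run of letters and was not tested as a binding site.

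Retnlb, whose goblet cell product acts on Gram-negative bacteria, was higher in both Winnie groups once C57BL/6 replicate 7 was set aside. In C57BL/6 it ranged from 0.0386 to 181 CPM with a median of 0.264 CPM, and replicate 7 alone held the 181 CPM, since the other 7 controls did not exceed 1.5 CPM. In Winnie it ranged from 2.08 to 50.9 CPM (median 18.2) and in Winnie-Prolapse from 23.2 to 142 CPM (median 89.9). Every library of both Winnie groups lay above the 7 other controls, and none above replicate 7.

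With all libraries, Retnlb differed from C57BL/6 by 0.27 ± 1.38 in Winnie (adjusted p = 0.902) and by 1.90 ± 1.38 in Winnie-Prolapse (adjusted p = 0.257), on the log2 scale. Without C57BL/6 replicate 7 it rose by 6.02 ± 0.80 in Winnie (adjusted p = 8.86e-04) and by 7.70 ± 0.68 in Winnie-Prolapse (adjusted p = 6.15e-07). With Winnie replicate 2 also left out, the rise in Winnie was 5.90 ± 0.82 (adjusted p = 0.00141). With Winnie-Prolapse replicate 6 also left out, the rise in Winnie-Prolapse was 7.57 ± 0.68 (adjusted p = 1.45e-06). In the fits without C57BL/6 replicate 7, the controls held 1 to 44 counts of Retnlb. Winnie libraries held 54 to 1507 and Winnie-Prolapse libraries 784 to 4350. Retnlb thus passed the filter on low counts mainly through the groups where it was high, and the values of those fits are descriptions. Winnie-Prolapse exceeded Winnie by 1.66 ± 0.56 (adjusted p = 0.0746), with 5 of 7 libraries above all Winnie libraries, and by 1.83 ± 0.55 without Winnie-Prolapse replicate 1 (adjusted p = 0.0482). With all libraries, limma-voom gave 7.25 ± 1.15 for Winnie-Prolapse against C57BL/6 (adjusted p = 1.11e-04), past the study's limit where edgeR was not.

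**Figure D2:**
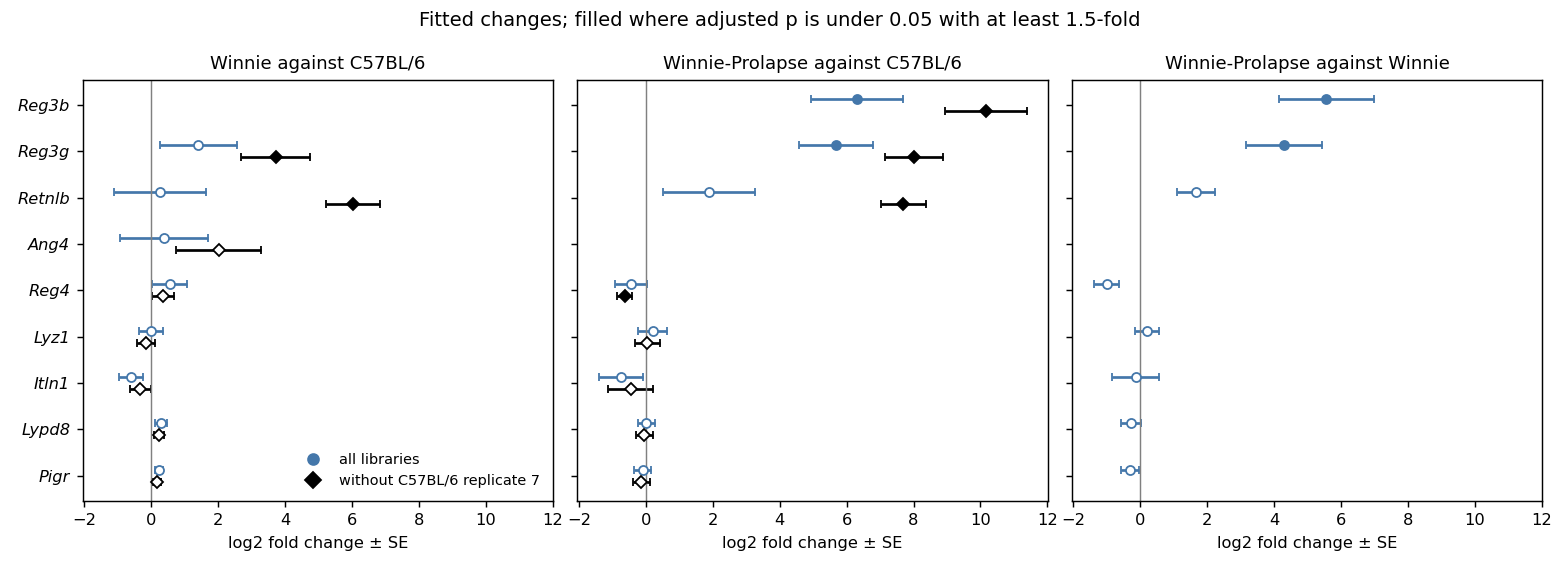
Log2 fold change of each tested member with its standard error in the 3 comparisons; circles use all libraries, diamonds leave out C57BL/6 replicate 7, and filled symbols mark an adjusted p under 0.05 with at least 1.5-fold. Leaving the library out moved Reg3b from 6.32 to 10.16 and Retnlb from 1.90 to 7.70 in Winnie-Prolapse against C57BL/6, while Lypd8 and Pigr stayed near 0.

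Reg4 and Ang4 did not share this pattern. Reg4 encodes a secreted lectin made by deep crypt secretory and enteroendocrine cells of the colon. It ranged from 5.65 to 289 CPM in C57BL/6 (median 224), where replicate 7 was lowest and the others did not go below 155 CPM. It ranged from 114 to 496 CPM in Winnie (median 156) and from 65.9 to 205 CPM in Winnie-Prolapse (median 132), with all 3 groups overlapping. The difference was -0.45 ± 0.48 for Winnie-Prolapse against C57BL/6 (adjusted p = 0.445), and Reg4 fell by 0.63 ± 0.23 on the log2 scale (adjusted p = 0.0320) without C57BL/6 replicate 7. Against C57BL/6, Winnie differed by 0.55 ± 0.52 (adjusted p = 0.458), by 0.36 ± 0.32 without C57BL/6 replicate 7 (adjusted p = 0.422), by -0.67 ± 0.21 in males alone (adjusted p = 0.0403) and by 1.24 ± 0.84 in females alone, where C57BL/6 replicate 7 is included (adjusted p = 0.460). With Winnie-Prolapse replicate 6 as well as C57BL/6 replicate 7 left out, the call for Winnie-Prolapse was lost (-0.52 ± 0.22, adjusted p = 0.066). Winnie-Prolapse lay 1.0 ± 0.38 below Winnie (adjusted p = 0.105), with 3 of 7 libraries below all Winnie libraries.

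Ang4, a ribonuclease that kills bacteria, was low and scattered. It ranged from 0.0386 to 53.0 CPM in C57BL/6, with the highest level again in replicate 7 and at most 10.6 CPM in the others. In Winnie it ranged from 0.0961 to 38.3 CPM, and the 3 males (0.0961 to 0.138 CPM) lay below the 4 females (1.91 to 38.3 CPM). In Winnie-Prolapse it ranged from 0.0327 to 1.0 CPM, and here the 4 males (0.207 to 1.0 CPM) lay above the 3 females, which had 1 count each. Winnie differed from C57BL/6 by 0.39 ± 1.32 on the log2 scale (adjusted p = 0.849), and by 2.01 ± 1.27 without C57BL/6 replicate 7 (adjusted p = 0.242). Ang4 did not pass the filter on low counts in either comparison with Winnie-Prolapse. Tested without that filter, it fell by 5.07 ± 1.35 against C57BL/6 (adjusted p = 0.00754), by 3.46 ± 1.07 when C57BL/6 replicate 7 was also left out (adjusted p = 0.0192), and by 5.47 ± 1.34 against Winnie (adjusted p = 0.0309).

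The most abundant members, Lypd8 and Pigr, overlapped between the 3 groups and passed neither limit in any comparison with all libraries. LYPD8 is a membrane-anchored protein of colonic epithelium that is shed and binds the flagella of bacteria. Lypd8 ranged from 9844 to 17457 CPM in C57BL/6 (lowest in replicate 7, 14548 ± 2152 SD, n = 8), from 12900.5 to 21003 CPM in Winnie (16654 ± 3092, n = 7) and from 8252 to 22276 CPM in Winnie-Prolapse (13636 ± 5445, n = 7). The difference from C57BL/6 was 0.29 ± 0.17 in Winnie (adjusted p = 0.207) and 0.01 ± 0.25 in Winnie-Prolapse on the log2 scale. When C57BL/6 replicate 7 was left out they were 0.22 ± 0.15 and -0.04.

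PIGR carries dimeric immunoglobulin A and pentameric immunoglobulin M across the epithelium. Pigr ranged from 3499.9 to 5777 CPM in C57BL/6 (median 4759), from 4402 to 5603 CPM in Winnie (median 4977) and from 2282 to 5826 CPM in Winnie-Prolapse (median 3368). It differed from C57BL/6 by 0.23 ± 0.12 in Winnie and by -0.09 ± 0.25 in Winnie-Prolapse, and the 3 groups overlapped. With C57BL/6 replicate 7 left out they were 0.18 ± 0.11 and -0.13 ± 0.26. Of 4 genes of polymeric immunoglobulins and the plasma cells that make them, 3 rose in Winnie-Prolapse at the study's limit, the immunoglobulin A heavy chain Igha by 3.15 ± 0.34 (adjusted p = 4.27e-06), the joining chain Jchain by 2.82 ± 0.33 (7.48e-06) and the plasma cell chaperone Mzb1 by 2.36 ± 0.31 (1.85e-05). Ighm differed by 0.89 ± 0.46 (adjusted p = 0.112). In Winnie the same 3 passed at 0.05, with Igha higher by 2.48 ± 0.40 (adjusted p = 0.00186).

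Lyz1 and Itln1, both known from Paneth cells, did not pass either limit in the 3 comparisons with all libraries. Lyz1 ranged from 1.27 to 14.8 CPM in C57BL/6, from 2.96 to 10.5 CPM in Winnie and from 1.54 to 15.8 CPM in Winnie-Prolapse, with medians of 7.35, 7.43 and 7.80 CPM. Its difference from C57BL/6 was 0.20 ± 0.43 on the log2 scale in Winnie-Prolapse and 0.05 ± 0.37 without C57BL/6 replicate 7. In Winnie these values were 0.0012 ± 0.36 and -0.16 ± 0.27. In Winnie-Prolapse against C57BL/6, Lyz2 rose by 1.32 ± 0.29 (adjusted p = 0.00157, past the limit of 0.05), and 5 of 6 macrophage and monocyte markers tested were higher at 0.001.

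Itln1, a lectin for microbial sugars, had medians of 0.800, 0.518 and 0.163 CPM in the 3 groups. It ranged from 0.0908 to 2.69 CPM in Winnie-Prolapse, where 6 of 7 libraries did not exceed 0.484 CPM and replicate 7 was highest. The difference from C57BL/6 was -0.60 ± 0.36 in Winnie and -0.74 ± 0.66 in Winnie-Prolapse, and -0.32 ± 0.32 and -0.45 ± 0.67 without C57BL/6 replicate 7. Without Winnie-Prolapse replicate 7, Itln1 fell by 2.22 ± 0.45 in Winnie-Prolapse and passed the study's limit (adjusted p = 9.47e-04). That library also had the highest squamous marker sum (2683 CPM). Of 14 Paneth cell genes listed, 12 were in the table, and their summed level had a mean of 1.92 CPM in C57BL/6, 29.8 CPM in Winnie and 105 CPM in Winnie-Prolapse. In Winnie-Prolapse against C57BL/6, 2 of the 12 passed the filter on low counts, and Pla2g2a was higher by 6.26 ± 0.43 (adjusted p = 4.52e-08). The other, the matrix protease Mmp7 (3.37 ± 1.03, adjusted p = 0.0123), did not pass the filter in Winnie against C57BL/6, so that it entered through the group where it was high. The alpha-defensin genes, which define that cell type, summed to 8, 0 and 2 counts over all C57BL/6, Winnie and Winnie-Prolapse libraries, with no value above 0.145 CPM.

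Counted together, 8 of the 10 members passed the filter on low counts in each comparison. In Winnie-Prolapse against C57BL/6, 1 of the 8 was higher and 0 lower at the study's limit, where 9.84% of all genes tested were higher and 8.47% lower. At an adjusted p under 0.05, 2 were higher and 0 lower, against 16.7% and 17.7% of all genes. Without C57BL/6 replicate 7, 3 members were higher at the study's limit (all genes 10.8% higher, 9.35% lower), and 3 were higher and 1 lower at 0.05 (17.7% and 17.6%). With all libraries the median log2 fold change of the 8 was 0.11 and that of all genes -0.011, and without C57BL/6 replicate 7 they were 0.0037 and 0.0083. In the comparisons of 2 groups, Reg3b passed the filter only with Winnie-Prolapse, the group in which it was high, so these counts and medians are descriptions.

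In Winnie against C57BL/6, edgeR called 0 of the 8 members at either limit, and 0 had an unadjusted p under 0.05 (39.9% of all genes). DESeq2 and limma-voom each called 1 at 0.05 (17.3% and 16.1% of all genes in either direction) and 0 at 0.001 (6.32% and 0%). By edgeR, 0.0868% of all genes were higher and 0.00578% lower at the study's limit, and 7.42% and 8.53% at 0.05. Without C57BL/6 replicate 7, Retnlb passed the study's limit (0.157% of all genes higher, 0.0291% lower), and Retnlb and Reg3g passed at 0.05 (8.16% and 8.14%). Retnlb then passed the filter on low counts mainly through Winnie, where it was high, so these counts are descriptions. In Winnie-Prolapse against Winnie, 0 members and 0% of all genes in either direction passed the study's limit by edgeR. There, 4 of the 8 members had an unadjusted p under 0.05, against 27.8% of all genes. At the study's limit DESeq2 called 3 (3.48% of all genes in either direction) and limma-voom 0 (0%). At 0.05, 2 members were higher and 0 lower, against 4.27% and 2.72% of all genes.

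The sexes were compared because the labels give the sex of each mouse. Over all libraries with group as a term, edgeR called 0 of 9 members tested between males and females at an adjusted p under 0.05 (0.0793% of all genes, and 0.0689% without C57BL/6 replicate 7), and 2 had an unadjusted p under 0.05 (4.62% of all genes). In males minus females on the log2 scale, Itln1 differed by -1.40 ± 0.43 (adjusted p = 0.810) and Ang4 by -3.54 ± 1.34 (adjusted p = 0.961), and without C57BL/6 replicate 7 by -1.31 ± 0.46 and -2.43 ± 1.29 (both adjusted p = 0.944). The change from C57BL/6 to Winnie differed between the sexes for 0 of 9 members, with 3 at an unadjusted p under 0.05, against 18.2% of all genes (0.247% of all genes called, 1.37% without C57BL/6 replicate 7). The widest was Reg3b, whose change was 9.31 ± 2.53 larger in males (adjusted p = 0.0984), where C57BL/6 replicate 7 is a female and Winnie replicate 2 a male. Reg3b did not pass the filter on low counts in that fit without C57BL/6 replicate 7. For Reg4 the male change was 1.51 ± 0.44 below the female change without C57BL/6 replicate 7 (adjusted p = 0.0856), as the Winnie males ranged from 114 to 155 CPM and the Winnie females from 156 to 496 CPM. The change from C57BL/6 to Winnie-Prolapse differed for 0 members and 0% of all genes, with 3 members at an unadjusted p under 0.05 (823 of 18722 genes tested) and every adjusted p at 1.0. No other tool was run on the sexes.

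Within groups, the members fell into a few pairs that moved together from mouse to mouse. With the group means subtracted from log2 CPM, Reg3b and Reg3g had a Pearson r of 0.93 over 22 libraries and 0.90 over 21 without C57BL/6 replicate 7. These points share library depth, and the r is a description. Lypd8 and Pigr had 0.81 and 0.80. Retnlb had 0.71 with Reg3b and 0.72 with Reg3g, and 0.51 and 0.59 without replicate 7. Reg4 and Ang4 had -0.06 with all libraries and 0.72 without replicate 7, and Reg4 and Retnlb went from -0.66 to 0.20, so that these values rest on that library. By Spearman rank correlation, Reg3b and Reg3g had 0.70 with all libraries and 0.73 without replicate 7, and Lypd8 and Pigr 0.71 and 0.69. Retnlb had 0.71 with Reg3b and 0.63 with Reg3g by rank, and 0.55 and 0.56 without replicate 7. Ranks gave Reg4 and Ang4 0.32 and 0.66, and Reg4 and Retnlb -0.16 and 0.08.

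**Figure D3:**
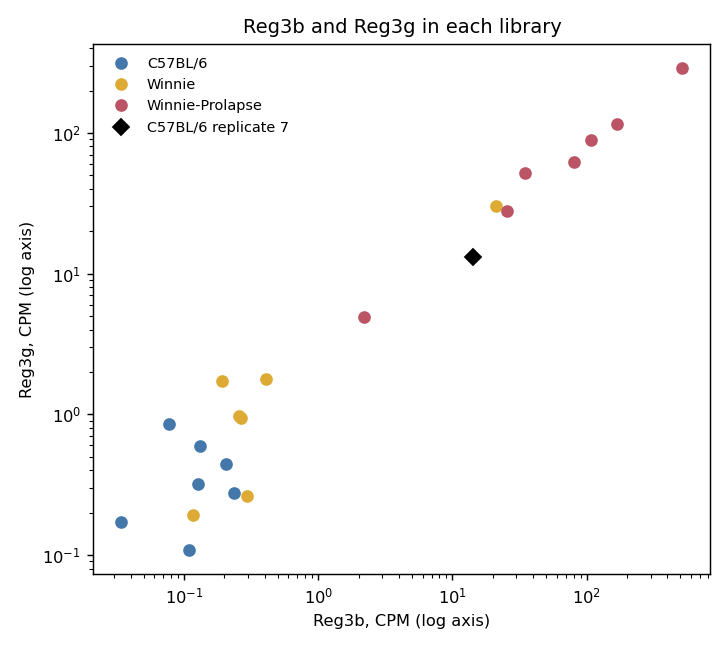
Reg3g against Reg3b in each of the 22 libraries, both in CPM on log axes, with symbols by group. The libraries lie along a diagonal from under 1 CPM in most C57BL/6 and Winnie mice to 517 CPM of Reg3b and 289 CPM of Reg3g in Winnie-Prolapse replicate 6, and C57BL/6 replicate 7 and Winnie replicate 2 lie between.

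Among 17718 genes compared without C57BL/6 replicate 7, those most like each member in this sense were found by the highest r. Reg3g was most like Lrg1 (0.77), Retnlb most like Ube2f (0.83) and Pla2g2a (0.82), and Reg3b most like Ankrd1 (0.80). Reg4 was most like the transmembrane mucin gene Muc3a (0.89), Mpst (0.88) and Klk1 (0.87). Lypd8 was most like Cd82 (0.95) and Serpinb1a (0.94), and Pigr most like Os9 (0.91). Ang4 was most like Gramd1b and Pde6a (both 0.82), Lyz1 most like Snn (0.85) and Itln1 most like Gm10617 (0.75). With all 22 libraries and 17769 genes, Os9 again led for Pigr (0.92). Different genes led for the other members, with Limd1 for Reg3b (0.80), Tnfrsf23 for Reg3g (0.82), 5033404E19Rik for Reg4 (0.92), Cpne8 for Retnlb (0.90), Rgs17 for Ang4 (0.84), Serpinb1a for Lypd8 (0.94), Stra6 for Lyz1 (0.90) and Lrat for Itln1 (0.74).

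**Figure D4:**
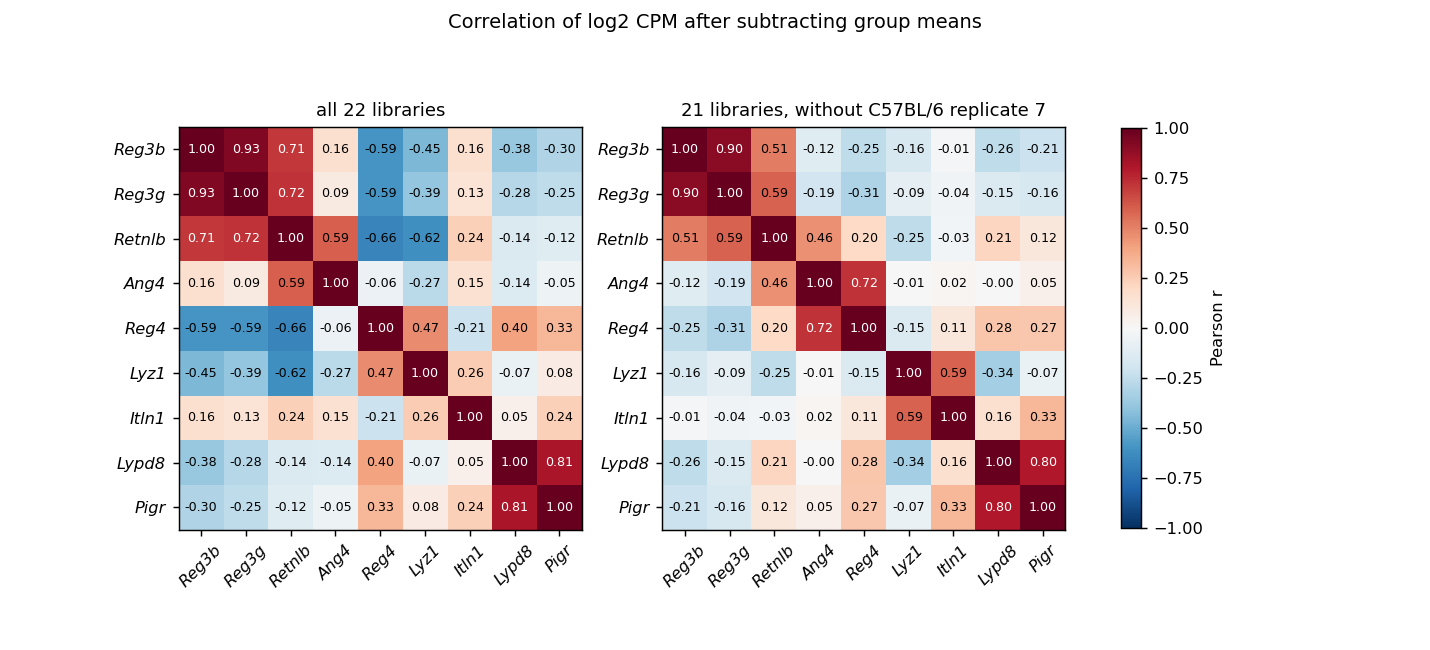
Pearson r between members over libraries after the group means of log2 CPM were subtracted, with all 22 libraries and with 21 libraries without C57BL/6 replicate 7. Reg3b with Reg3g (0.93 and 0.90) and Lypd8 with Pigr (0.81 and 0.80) keep their Pearson values, while Reg4 with Ang4 goes from -0.06 to 0.72. Spearman rank values, not drawn, were 0.70 and 0.73 for Reg3b with Reg3g and 0.71 and 0.69 for Lypd8 with Pigr.

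Some other antimicrobial genes of the epithelium rose in the prolapsed colon. Of 28 such genes listed, 23 were tested in Winnie-Prolapse against C57BL/6, and 9 were higher and 1 lower at the study's limit, and 10 higher and 3 lower at 0.05, with a median log2 fold change of 0.20. Defb1, a defensin gene and 1 of the 9, named after its values were seen, passed the filter here but not in Winnie against C57BL/6, so the count and median are descriptions. The iron-binding lipocalin Lcn2 rose by 7.96 ± 1.0 (adjusted p = 1.44e-05), the nitric oxide synthase Nos2 by 6.99 ± 0.61 (5.26e-07) and the phospholipase Pla2g2a by 6.26 ± 0.43 (4.52e-08). Clca1, a protease of goblet cell mucus, fell by 3.00 ± 0.61 (adjusted p = 8.06e-04). In Winnie against C57BL/6, 9 of 22 such genes were higher and 0 lower at 0.05, among them Pla2g2a (4.47 ± 0.60, adjusted p = 0.00102) and the protease inhibitor Slpi (3.65 ± 0.53, 0.00128), the latter named after its values were seen.

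Among cytokines that induce such genes and the proteins that carry their signal, more were higher than lower in Winnie-Prolapse. The table held 17 cytokine genes, of which 8 passed the filter on low counts and 4 were higher and 1 lower at the study's limit, among them Ifng (8.42 ± 0.68, adjusted p = 2.55e-07), Il1b (6.93 ± 0.60, 4.83e-07) and Osm (6.53 ± 0.92, 3.87e-05), while Il18, an epithelial cytokine, fell by 1.46 ± 0.24 (1.40e-04). Ifng, Osm and Il11, 3 of the 4 higher genes, did not pass the filter in Winnie against C57BL/6, so they entered through the group where they were high and the count is a description. Il22, like Il11 named after its values were seen, had mean levels of 0.0316, 0.0404 and 0.204 CPM in C57BL/6, Winnie and Winnie-Prolapse, the first and the middle of them below the level of 3 counts. Of 25 receptors and signal transducers, 12 were higher and 0 lower. They included Socs1 (4.4 ± 0.27, adjusted p = 1.22e-08) and Socs3 (3.66 ± 0.29, 2.4e-07), which encode feedback inhibitors of cytokine signalling, and Nod2 (3.30 ± 0.32, 1.63e-06), a sensor of bacterial cell walls.

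Cell type lists moved as well. In Winnie-Prolapse against C57BL/6, 0 of 7 general epithelial genes were called by edgeR at either limit, with 3 at an unadjusted p under 0.05 (58.5% of all genes). Of 9 goblet cell markers tested, 2 were higher and 1 lower at the study's limit, and 2 were higher and 4 lower at 0.05 (Clca1, Tff3, Atoh1 and Muc2), with a median log2 fold change of -0.84. Of 5 deep crypt secretory markers, 2 were higher at the study's limit and Kit fell by 1.18 ± 0.21 (adjusted p = 2.56e-04). The higher genes are the same in both lists, Agr2 (1.49 ± 0.16, 4.56e-06) and Spink4 (1.17 ± 0.16, 2.44e-05). Of 7 surface colonocyte markers 2 were lower at the study's limit, Car1 by 2.98 ± 0.40 (2.57e-05) and Slc26a3 by 2.55 ± 0.51 (7.14e-04). At 0.05, 5 were lower and 1 was higher, Krt20 by 0.87 ± 0.34 (adjusted p = 0.0397), with a median log2 fold change of -2.19. Of 6 squamous markers 4 passed the filter and were higher, but Krt5 and Krt6b passed it only where Winnie-Prolapse was in the fit. Smooth muscle markers were lower in 5 of 5. Of 6 neutrophil markers 4 passed the filter, and S100a8 (9.25 ± 0.73, adjusted p = 2.15e-07), S100a9 and Retnlg were higher. S100a9 and Retnlg did not pass it in Winnie against C57BL/6, where 1 of 2 tested was higher at 0.05, so the count is a description. S100a8 ranged from 0.0342 to 0.617 CPM in C57BL/6, from 0.0984 to 36.2 CPM in Winnie and from 21.4 to 356 CPM in Winnie-Prolapse. Since S100a8 thus passed the filter mainly through groups where it was high, its values are descriptions as well. The summed level of the 6 ranged from 4.02 to 357 CPM, from 311 to 648 CPM and from 503 to 1635 CPM in the same groups, and Ly6g made up most of its mean in each. The counts at the study's limit in the antimicrobial, cytokine, receptor, immunoglobulin and cell type lists named here moved by at most 1 gene in either direction without C57BL/6 replicate 7. The part of these cell types in the values of the members and of the antimicrobial and cytokine genes was not tested.

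**Figure D5:**
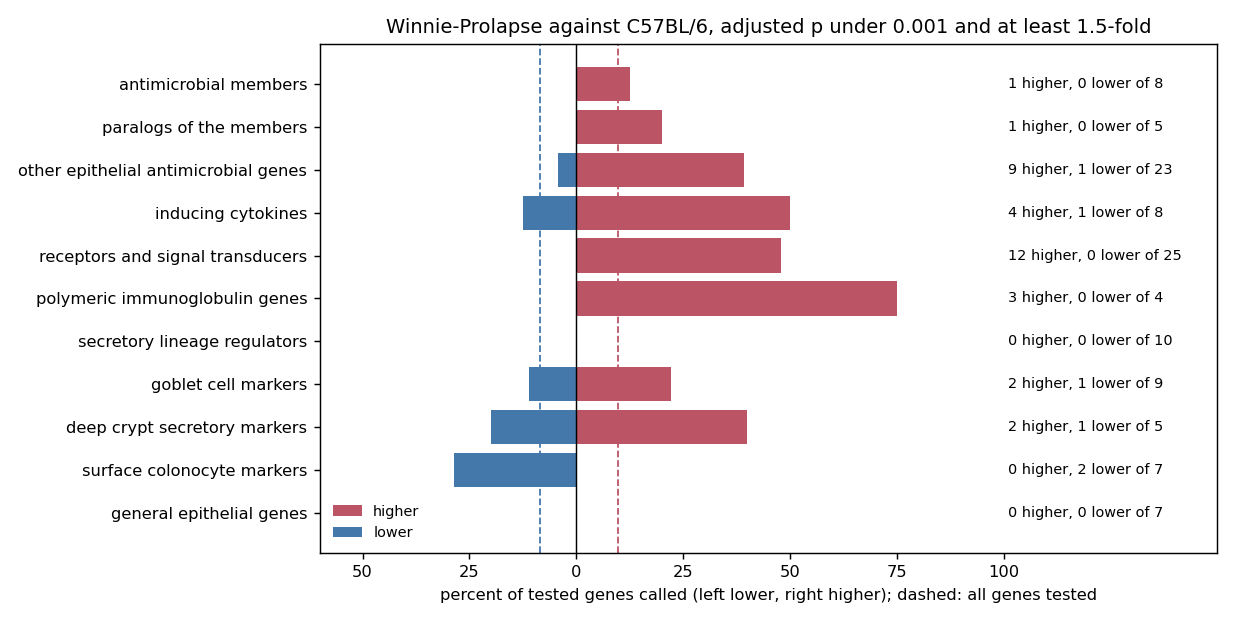
Percentage of the tested genes of each list that were higher or lower in Winnie-Prolapse than in C57BL/6 at an adjusted p under 0.001 and at least 1.5-fold, with the values for all genes (9.84% and 8.47%) as dashed lines. Receptors and transducers (12 of 25 higher) and other antimicrobial genes (9 of 23 higher, of which Defb1 passed the filter on low counts only with Winnie-Prolapse) lie above the line for higher genes, while general epithelial genes had none called; the shares are of genes that passed the filter on low counts.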

How the data were processed

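Poly(A) RNA of distal colon pieces from 22 mice was sequenced by the authors in stranded paired-end libraries. The deposited table holds raw counts of reads per gene, made by the authors with the RNAsik pipeline on GRCm38; their processing notes name STAR and featureCounts, and the annotation release, strand setting and handling of shared reads were not given in the sources used here. No normalization had been applied. Groups, ages and sexes were taken from the labels, which name no batch.

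Differences between groups were fitted to the counts in R 4.3.3 by edgeR 4.0.16 (quasi-likelihood F test, TMM factors, filterByExpr, Benjamini-Hochberg adjustment over all genes tested), on the 2 groups compared and without covariates. A gene was called at an adjusted p under 0.001, the study's limit, or under 0.05, each with at least 1.5-fold. Sex was tested over all libraries with group as a term, and as an interaction, at 0.05. CPM are counts scaled by the library total, and floors of 3 counts cover counting error only. Log2 CPM had a prior count of 2. Alternatives were DESeq2 1.42.0, limma-voom (limma 3.58.1), no TMM factors, scaling to general epithelial genes, other filters, sex as a covariate, all groups in 1 fit, each sex alone and each library left out; those without C57BL/6 replicate 7, alone or with another library or setting, were chosen after the data were seen. The test script was run on simulated data first. Pairs of libraries in a group differed beyond sampling noise (lowest chi-square per degree of freedom 28.8).

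The members and gene lists were chosen with earlier results of these data known. Named were all 10 members, in each other list up to 3 genes of highest level and up to 3 called genes with the largest changes in each direction in Winnie-Prolapse against C57BL/6, and, of the 3 genes most like each member, the first or more; others are said to be named after their values were seen. Sequences came from GENCODE M21 and RefSeq promoters (GRCm38.p6; 9 of 10 members matched) and were aligned with Biopython 1.88.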

Additional observations from a re-analysis of the deposited data

Results flagged for a closer look

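In 29 groups of 7 or 8 libraries, the gap between the highest or lowest library and its nearest neighbour was compared with the range of the group. The limit was Dixon's 95% critical value, which normally distributed values pass by chance in about 1 in 20 groups. It was passed 14 times. CPM of low counts are skewed and the same libraries recur across genes, so this number cannot be set against 1 in 20. C57BL/6 replicate 7 was far above its group for Reg3b (14.2 CPM), Reg3g (13.1 CPM), Retnlb (181 CPM), Ang4 (53.0 CPM) and Itln1 (2.21 CPM), and far below it for Reg4 (5.65 CPM) and Lypd8 (9844 CPM). This is the library with 0.217 CPM of Hoxd13, and its neutrophil marker sum was 4.02 CPM against 242 to 357 CPM in the other controls. Ly6g made up most of the mean of that sum in C57BL/6, and whether the sum reflects neutrophils was not tested. Whether the position of this library along the colon moves these 7 genes was not tested.

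Winnie replicate 2 was far above its group for Reg3b (21.2 CPM) and Reg3g (30.1 CPM), and for Reg3a it held the only count of that group (0.0320 CPM). Winnie-Prolapse replicate 6, the library rich in milk protein RNA and with 326 CPM of exocrine pancreas markers, was far above its group for Reg3b (517 CPM) and Reg3g (289 CPM). The part of such other tissue in these 2 values was not tested. Winnie-Prolapse replicate 2 was highest for Ang4 (1.0 CPM, 31 counts) and Winnie-Prolapse replicate 7 for Itln1 (2.69 CPM, 73 counts).

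Between the sexes, Ang4 went in opposite directions from Winnie to Winnie-Prolapse. All 4 males of Winnie-Prolapse lay above all 3 males of Winnie (difference of means 0.312 CPM), and all 3 females lay below all 4 females of Winnie (difference -19.8 CPM). The difference between the sexes in this comparison was not tested, and the highest male level was 1.0 CPM.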

How the results depend on the processing

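No paired analysis was possible because replicate numbers were given in sample order and pair no mice. In the main fit by edgeR, Reg3b in Winnie-Prolapse and Retnlb in both comparisons with C57BL/6 passed 0.001 without C57BL/6 replicate 7 and not with all libraries. The same held for Reg3g in Winnie at 0.05. Other tools and settings differed, as given below, and with all libraries limma-voom put Retnlb in Winnie-Prolapse past 0.001. In Winnie-Prolapse against C57BL/6, 1 member passed the limit of 0.001. Without replicate 7 the count was 3, also under library size scaling, epithelial scaling, DESeq2, no filter, sex as a covariate or without Winnie-Prolapse replicate 6, and 2 under limma-voom. With all libraries it was 2 under epithelial scaling, limma-voom or sex as a covariate, 3 under DESeq2, 0 with at least 10 counts in every library or in females alone, and 0 to 3 leaving out each library. At 0.05 the count of 2 became 4 under DESeq2, limma-voom, no filter or males alone, 0 with at least 10 counts, 2 to 4 leaving out each library, and without replicate 7 it was 4 under library size scaling, epithelial scaling or sex as a covariate, 6 under DESeq2 or no filter and 5 under limma-voom. For most of these alternative fits no share of all genes is given, so their counts cannot be set against all genes.

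In Winnie against C57BL/6, the count of 0 at 0.001 became 1 without replicate 7 under every setting but limma-voom and the one without Winnie replicate 2 (0 each), and 0 to 1 leaving out each library. At 0.05 it became 1 under DESeq2 or limma-voom, 3 in males alone, 0 to 2 leaving out each library, and without replicate 7 it was 2, 3 with no filter, or 1 under limma-voom or without Winnie replicate 2. In Winnie-Prolapse against Winnie, DESeq2 called 3 at 0.001. At 0.05 the count of 2 became 5 under DESeq2, 4 in females alone, 0 with at least 10 counts, with sex as a covariate or in males alone, and 0 to 3 leaving out each library. Most of these alternative fits, too, have no share of all genes beside them, so their counts describe the members alone.

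Signs turned mostly where changes were small, and the cause was not tested. In Winnie against C57BL/6, the log2 fold change was -1.76 for Reg3g and -0.49 for Retnlb in females alone, -0.67 for Reg4 in males alone and -0.70 for Ang4 with sex as a covariate. In the other sex alone they were 5.32 for Reg3g (adjusted p = 0.0191) and 5.58 for Retnlb (adjusted p = 0.00889) in males and 1.24 for Reg4 (adjusted p = 0.460) in females, which include replicate 7. The males include Winnie replicate 2. Leaving out each library gave -0.90 to 3.72 for Reg3g, -0.37 to 2.01 for Ang4 and -0.16 to 0.22 for Lyz1. Epithelial scaling gave Lypd8 -0.052, Pigr -0.084 and Lyz1 -0.29, and without replicate 7 -0.13, -0.15 and -0.46. Lyz1 was -0.079 under library size scaling, -0.042 with at least 10 counts, -0.0072 with sex as a covariate, -0.0018 with all groups in 1 fit and -0.16 in females alone. Without replicate 7, Lyz1 was -0.24 under library size scaling, -0.15 under DESeq2, -0.14 with no filter, -0.13 under limma-voom, -0.18 with sex as a covariate and -0.15 without Winnie replicate 2.

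In Winnie-Prolapse against C57BL/6, Lypd8 was -0.086 under library size scaling, limma-voom or males alone, -0.25 under epithelial scaling and -0.17 to 0.12 leaving out each library. Without replicate 7, Lypd8 was -0.15 under library size scaling or limma-voom, -0.32 under epithelial scaling, -0.034 under DESeq2, -0.035 with no filter and -0.040 with sex as a covariate, and Lyz1 was -0.025 (library size scaling), -0.15 (epithelial scaling) and -0.076 (limma-voom). Leaving out each library gave -0.11 to 0.43 for Lyz1 and -0.23 to 0.043 for Pigr, and Itln1 was 0.055 in females alone. In Winnie-Prolapse against Winnie, Reg4 was 0.26 in males alone, Itln1 was 0.55 in females alone and -1.59 to 0.081 leaving out each library, and Lyz1 -0.067 to 0.37. Of the member fold changes tried, 589 kept direction and side of the limit, 29 gained a call, 10 lost it and 63 turned sign. Levels of Reg3a, and of Reg3b in 7 controls, rest on few counts, and differences there are limited by depth.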
